A study of Mus musculus with 6 samples.

Results

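The Ms4a genes encode small leukocyte membrane proteins that cross the membrane several times, and most of them lie side by side in 1 cluster on mouse chromosome 19. The genes described here are 8 of that cluster, Ms4a1, Ms4a4a, Ms4a4b, Ms4a4c, Ms4a6b, Ms4a6c, Ms4a6d and Ms4a7, out of 26012 genes in the table, and they span 355.2 kilobases, chr19:11249675-11604849 (GRCm38). They were chosen by name, with earlier results of these hearts known, and selected on 1 measured value, a mean normalized count of at least 1 over all hearts, which all 8 had. The least abundant of them, Ms4a1, had a mean of 12.7, and no named gene lay below the limit.

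RNA was sequenced from the ventricles of male C57BL/6 mice, 8 weeks old, that had a myocardial infarction (MI) induced by tying off the LAD coronary artery and received 10 μg of mimic by injection into the heart. Hearts were taken 4 days later, 3 after control mimic and 3 after miR-19a/19b mimics, and every animal had both the infarct and an injection. Mimics are double-stranded RNAs made to enter the silencing machinery in the way of the mature miRNA they copy. Whole ventricle holds cardiomyocytes, fibroblasts, vessels and infiltrating leukocytes together, so for every gene below fewer cells of a type and less RNA per cell cannot be told apart.

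MS4A1 is CD20, a surface marker of B cells and the target of the antibody rituximab. MS4A2 is the beta chain of the high-affinity IgE receptor of mast cells, and other MS4A proteins likewise sit beside signalling receptors in the membrane: MS4A4B modulates T cell activation, and MS4A4A of macrophages associates with the beta-glucan receptor Dectin-1. In an infarct, monocytes enter from the blood during the first days and become macrophages. Which cells of these hearts the Ms4a reads came from was not measured.

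The depth ranged from 19398196 to 23645308 reads on genes per heart. Replicate 3 of the miR-19a/19b mimic group stood apart from its 2 fellows. The summed normalized count of 8 cardiomyocyte markers was 296170 in that heart, against 868929 and 771735 in the other miR-19a/19b mimic hearts and 482786 to 629133 in control mimic hearts. For the Ms4a genes named above, log2 fold changes are given with and without this heart. Comparisons of a gene with another gene or with a gene list, and correlations between genes, include it unless stated otherwise. The correlations were not recomputed without it.

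The molecules injected are shown first because the search for their matches in the Ms4a transcripts uses their seed. The capitals mark bases 2 to 8, the seed, which both miRNAs share, in the mature sequences of RefSeq (GRCm38.p6). They differ at 1 base, U11C from miR-19a-3p to miR-19b-3p, counted from the 5′ end. The mature sequence of miR-19a-3p lies at chr14:115044048-115044070 on the plus strand. That of miR-19b-3p lies at chr14:115044358-115044380 and again on chromosome X.
miR-19a-3p: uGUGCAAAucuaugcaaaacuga
miR-19b-3p: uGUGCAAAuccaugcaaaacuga

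In every case, 8 of 8, the mean of the miR-19a/19b mimic group was the lower one. The largest difference was that of Ms4a4c, whose mean was 50% of the control mean. None of the 8 passed an adjusted p under 0.05 in limma, the test used here (log2(normalized count + 1), adjusted by Benjamini and Hochberg over 21126 genes), where 0.0% of all genes tested passed as lower. At an unadjusted p under 0.05, 5 of 8 were lower and 0 were higher, beside 2.63% of all genes tested as lower and 1.39% as higher. All 8 log2 fold changes were below 0, as were 49.2% of those of all genes tested. Their median was -0.37, beside 0.00 over all genes tested. For Ms4a1 and Ms4a6d the direction changed in some fits with 1 heart left out. Non-overlapping groups were seen for 2 of 8, Ms4a4c and Ms4a4b, both with the miR-19a/19b mimic hearts lower, as in 5.3% of all genes tested, and for 0 of 8 with them higher, as in 3.9%. Without miR-19a/19b mimic replicate 3, these counts were 3 of 8 at an adjusted p under 0.05 (0.774% of all genes as lower) and 6 of 8 with groups apart (14.4% of all genes as lower).

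**Figure D1:**
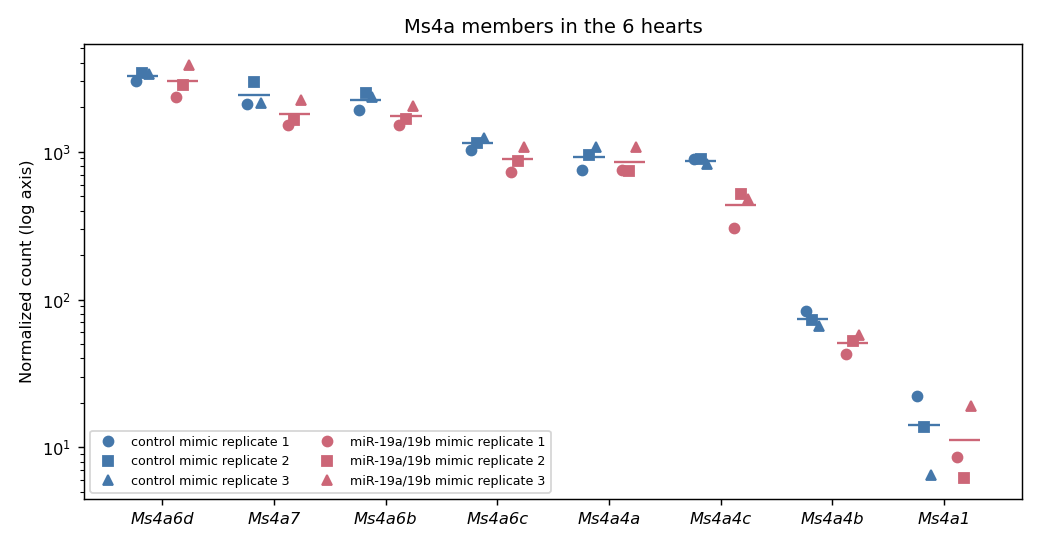
Normalized count (log axis) of each Ms4a member in the 6 hearts, control mimic in blue and miR-19a/19b mimic in red, with a symbol for each replicate number and a line at each group mean. Only for Ms4a4c and Ms4a4b do all the red symbols lie below all the blue ones, and the red triangle, miR-19a/19b mimic replicate 3, is the highest of its group for every member but Ms4a4c.

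Ms4a4c (ENSMUSG00000024675) spans chr19:11404770-11427246 on the plus strand (GRCm38) and is a gene of monocytes and other myeloid cells. Its normalized counts in replicates 1, 2 and 3 were 895, 899 and 821 after control mimic and 307, 521 and 481 after miR-19a/19b mimic. Every miR-19a/19b mimic heart was below every control mimic heart, and replicate 1 was the lowest. The log2 fold change was -1.03 (standard error 0.19, 95% interval -1.45 to -0.61, unadjusted p = 0.00037, adjusted p = 0.522 from limma). The call depended on the tool and on the heart that stood apart. On the reads recovered from the normalized counts, DESeq2's Wald test gave a log2 fold change of -0.999 (adjusted p = 0.00208), in a fit that called 28 of 21126 genes lower (0.133%), while edgeR's quasi-likelihood test gave an adjusted p of 0.581. Without miR-19a/19b mimic replicate 3, limma gave -1.12 (adjusted p = 0.0135). With the mean of the cardiomyocyte markers as a covariate, an alternative chosen after the values were seen, it gave -1.01 (adjusted p = 0.0143), in a fit that called 0.36% of all genes lower. Whichever heart was left out, the value was between -1.18 and -0.80.

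Ms4a4b (ENSMUSG00000056290), at chr19:11443553-11463549 on the plus strand, is a gene of T cells. It was scarce, with 84.0, 72.2 and 66.3 normalized counts in control mimic hearts and 43.0, 52.6 and 57.9 in miR-19a/19b mimic hearts. The groups were apart, although the highest miR-19a/19b mimic heart came close to the lowest control heart. The log2 fold change was -0.53 (standard error 0.20, unadjusted p = 0.027, adjusted p = 1 from limma), and it was -0.62 without miR-19a/19b mimic replicate 3.

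Ms4a4b and Ms4a4c are near relatives, and their sequences overlap enough to bear on the counts. Of the 1747 different 50-base windows in the annotated transcripts of Ms4a4c, 135 also occur in transcripts of Ms4a4b. The reads were 150 bases long, and how reads that fit both genes were assigned is not given in the sources used here, so the values of the less abundant Ms4a4b are uncertain in that respect. The part of such reads in its group difference was not tested.

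A further 3 members, all of myeloid cells, had an unadjusted p under 0.05 with groups that overlapped. Ms4a6b (ENSMUSG00000024677), which is found in T cells as well as myeloid cells, lies at chr19:11516512-11531256 on the plus strand. It had 1913, 2493 and 2329 normalized counts in control mimic hearts and 1512, 1674 and 2043 in miR-19a/19b mimic hearts. Only miR-19a/19b mimic replicate 3 reached into the control range. The log2 fold change was -0.37 (standard error 0.14, unadjusted p = 0.032, adjusted p = 1 from limma), and it was -0.49 without that heart.

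Ms4a6c (ENSMUSG00000079419), at chr19:11469366-11482192 on the plus strand, had 1031, 1146 and 1243 normalized counts in control mimic hearts against 725, 859 and 1081 after miR-19a/19b mimic. Again only replicate 3 of the miR-19a/19b mimic group overlapped the controls, above control mimic replicate 1. The log2 fold change of -0.37 (standard error 0.15, unadjusted p = 0.036, adjusted p = 1 from limma) became -0.53 without that heart (adjusted p = 0.0356 from limma). An antisense transcript, BE692007, overlaps Ms4a6c on the opposite strand and had a mean of 270 normalized counts over the 6 hearts. Since the library kit is not stated to keep strand, reads of the pair cannot be told apart where they overlap. Ms4a6c also shares 117 of its 2001 different 50-base windows with Ms4a6b.

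Ms4a7 (ENSMUSG00000024672), at chr19:11321039-11336146 on the minus strand, is a gene of macrophages. Its normalized counts were 2117, 2978 and 2132 in control mimic hearts and 1525, 1632 and 2235 in miR-19a/19b mimic hearts. Control mimic replicate 2 was the highest of all 6, and miR-19a/19b mimic replicate 3 lay above the other 2 controls. The log2 fold change was -0.42 (standard error 0.18, unadjusted p = 0.044, adjusted p = 1 from limma) with all hearts and -0.59 without miR-19a/19b mimic replicate 3 (adjusted p = 0.0498 from limma).

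For the remaining 3 members the difference between the group means was within the spread between hearts. Ms4a6d (ENSMUSG00000024679), a gene of macrophages at chr19:11586604-11604849 on the minus strand, had 2997, 3391 and 3343 normalized counts in control mimic hearts and 2334, 2805 and 3880 in miR-19a/19b mimic hearts. The miR-19a/19b mimic group held both the lowest and the highest heart. Its log2 fold change was -0.14 (95% interval -0.54 to 0.26, adjusted p = 1 from limma), and it was 0.03 without miR-19a/19b mimic replicate 1 and -0.34 without replicate 3.

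Ms4a4a (ENSMUSG00000101389), the macrophage partner of Dectin-1, lies at chr19:11375523-11392790 on the plus strand. It had 747, 957 and 1078 normalized counts in control mimic hearts and 749, 739 and 1068 in miR-19a/19b mimic hearts. The groups overlapped, and the upper end of the miR-19a/19b mimic range was replicate 3 alone. The log2 fold change was -0.13 (95% interval -0.54 to 0.28, adjusted p = 1 from limma). It was -0.30 without that heart (unadjusted p = 0.0498, adjusted p = 0.345 from limma) and -0.01 without control mimic replicate 3.

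Ms4a1 (ENSMUSG00000024673), the gene of CD20 at chr19:11249675-11266241 on the minus strand, was the scarcest member. It had 22.1, 13.7 and 6.54 normalized counts in control mimic hearts and 8.61, 6.19 and 19 in miR-19a/19b mimic hearts, which rest on 20, 14, 7, 8, 6 and 22 reads. At this depth no difference could be detected, since the log2 fold change of -0.30 has a 95% interval from -1.49 to 0.90 (adjusted p = 1 from limma). It was 0.08 without control mimic replicate 1 and -0.72 without miR-19a/19b mimic replicate 3.

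**Figure D2:**
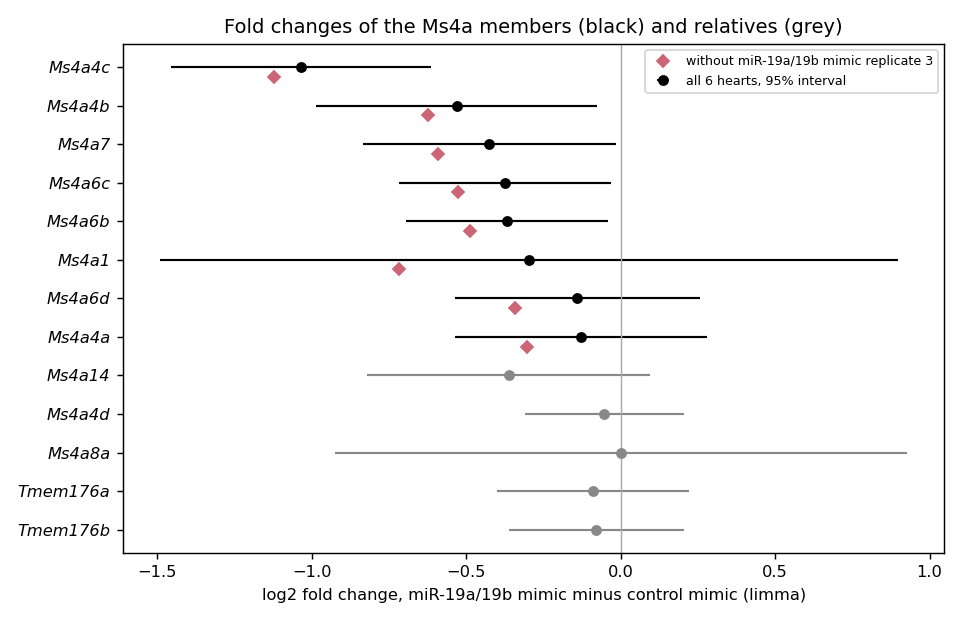
Log2 fold change of miR-19a/19b mimic minus control mimic hearts from limma for the Ms4a members (black) and for 5 relatives (grey), with 95% intervals from all 6 hearts, and in red diamonds for the members the value without miR-19a/19b mimic replicate 3. Every red diamond lies left of its black point, and the interval of Ms4a4c, -1.45 to -0.61, lies farthest from 0.

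Ms4a4c was then set beside each other member in the same heart, as a difference of log2 levels, which cancels whatever scales both genes alike. Relative to Ms4a6d, its group means were -1.89 after control mimic and -2.79 after miR-19a/19b mimic, a difference of -0.89 with no overlap of the groups. Relative to Ms4a6c the difference was -0.66, again with no overlap. In all, the groups were apart for 5 of the 7 pairs, with Ms4a4a, Ms4a4b, Ms4a6b, Ms4a6c and Ms4a6d, and overlapped with Ms4a7 (-0.61) and Ms4a1 (-0.74). Ms4a4c was set apart in this way after its values were seen, so these differences carry no test.

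Levels can be ranked between genes only per length, here as normalized counts per kilobase of exon. Ms4a6d had the highest mean over the 6 hearts, 1801 per kilobase (lowest heart 1345, highest 2236), and Ms4a4a followed with 1064 (884 to 1290). These ranges did not overlap each other or that of the next gene. Ms4a6c (495), Ms4a7 (472), Ms4a6b (445) and Ms4a4c (373) came next, and the range of each overlapped that of its neighbour in the order. Taken heart by heart, Ms4a6c was above Ms4a6b in every heart, most narrowly in control mimic replicate 2 (559 against 556). Every other pair of these genes changed order between hearts. Ms4a4b (11.9) and Ms4a1 (2.05), the lymphocyte genes, were far lower, and their ranges did not overlap. For Ms4a4b the exon length in the table is 5274 bases and that of all its transcripts in GENCODE M21 is 8780, so its level per kilobase depends on the gene model. The length of Ms4a4a is 836 bases from 1 transcript. Those of Ms4a7 (4453) and Ms4a6b (4485) each pool the exons of 5 transcripts. The order of these genes per kilobase therefore depends on the gene model as well.

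**Figure D3:**
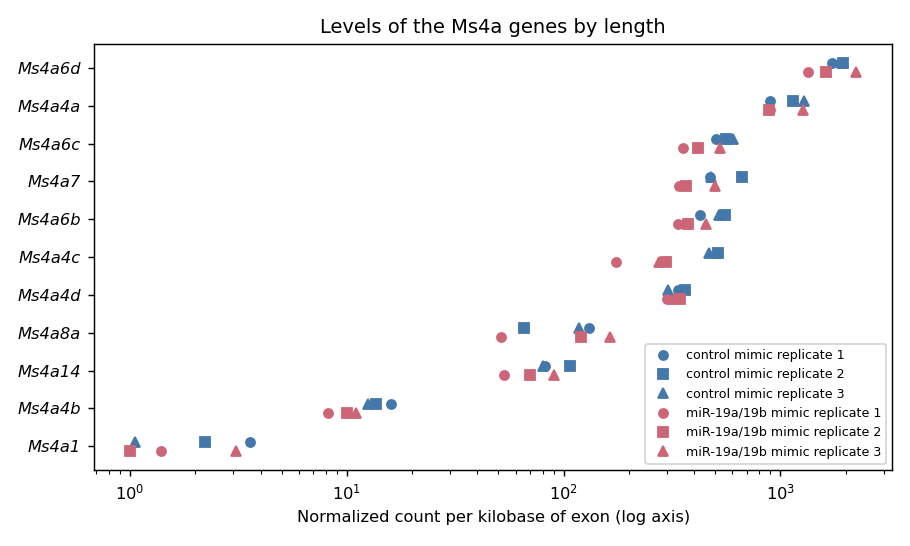
Normalized count per kilobase of exon (log axis) of the 8 Ms4a members and of Ms4a4d, Ms4a8a and Ms4a14 in each heart, control mimic in blue and miR-19a/19b mimic in red. Ms4a6d and Ms4a4a lead, the other myeloid members lie together between 175 and 669, and Ms4a4b and Ms4a1 lie far to the left.

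Scaled to 1000000 reads on genes, the 8 members together had 457, 578 and 499 reads in control mimic replicates 1, 2 and 3. They had 313, 371 and 542 in the miR-19a/19b mimic hearts. On this scale, 2 of the miR-19a/19b mimic hearts were below every control, and replicate 3 was within the control range. Ms4a6d, Ms4a6b and Ms4a7 made up 70.8% to 75.1% of the summed normalized count in every heart.

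For the other genes of the family the groups overlapped. RefSeq lists 21 Ms4a genes, of which 17 are in the table, and Ms4a5, Ms4a12, Ms4a13 and Ms4a15 were not analysed here. Beyond the 8 members, Ms4a4d had 510, 549 and 460 normalized counts in control mimic hearts against 453, 520 and 490 in miR-19a/19b mimic hearts. The groups overlapped, with a log2 fold change of -0.05 (95% interval -0.31 to 0.20, adjusted p = 1 from limma). Ms4a14 had a log2 fold change of -0.36 (adjusted p = 1 from limma), with 326 to 437 normalized counts in control mimic hearts and 215 to 367 in miR-19a/19b mimic hearts. Ms4a8a had 118 to 234 normalized counts in control mimic hearts and 92.5 to 293 in miR-19a/19b mimic hearts, with a log2 fold change of 0.00. Tmem176a and Tmem176b, relatives outside the cluster that are abundant in myeloid cells, had log2 fold changes of -0.09 and -0.08, and their groups overlapped. Ms4a2, the mast cell gene, had at most 2.21 normalized counts in any heart, Ms4a10 had a mean of 1.36, and Ms4a3 was at 0 in all 6. Of these other Ms4a and Tmem176 genes, 0 of the 6 tested had an unadjusted p under 0.05.

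Known binding and signalling partners of MS4A proteins were measured in the same hearts. None of the 9 tested had an unadjusted p under 0.05 in limma, and their median log2 fold change was -0.08. For Clec7a, which encodes Dectin-1, the partner of MS4A4A, the log2 fold change was -0.32 (95% interval -0.78 to 0.14). Trem2, a lipid receptor of macrophages whose shed form is linked to MS4A4A, had -0.06, and its signalling adaptor Tyrobp had -0.08. Tnfrsf18, the costimulatory receptor GITR of T cells with which MS4A4B associates, had 33.6 to 47.8 normalized counts in control mimic hearts and 42.0 to 51.9 in miR-19a/19b mimic hearts. Cd79a and Cd79b, the signalling chains of the B cell receptor beside which CD20 sits, had 0.50 and -0.11, with groups that overlapped.

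Each member was also set against 1 fixed marker list, that of a cell type in which it is known. The value was its log2 level minus the mean log2 level of the list in the same heart. The test was an exact permutation test, two-sided, which with 3 hearts against 3 cannot give a p below 0.1. Against 10 monocyte markers, Ms4a4c was lower in miR-19a/19b mimic hearts by -0.49 (0.65 ± 0.10 against 0.17 ± 0.27, SD, n = 3; exact permutation p = 0.1, the smallest possible), with groups that did not overlap. The groups were not apart with a pseudocount of 0.1 (-0.46, exact permutation p = 0.3) or with the median of the list in place of its mean (-0.38, exact permutation p = 0.3). Ms4a6c, against the same list, differed by 0.17 (exact permutation p = 0.4). Against 14 macrophage markers, Ms4a7 differed by -0.37 with groups apart (exact permutation p = 0.1), and Ms4a6d by -0.09 (exact permutation p = 0.6) and Ms4a4a by -0.08 (exact permutation p = 0.8). Against 14 T cell markers, Ms4a4b differed by -0.16 (exact permutation p = 0.6) and Ms4a6b by 0.00 (exact permutation p = 1). Ms4a6b is also a gene of myeloid cells, and against the macrophage markers it differed by -0.32 with groups apart. That list was put in for Ms4a6b after the data were seen. Ms4a1 differed from 14 B cell markers by -0.24 (exact permutation p = 0.8). None of these 8 tests could pass an adjusted threshold.

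The lists themselves differed in how they stood between the groups. Of all genes tested, 2.63% were lower and 1.39% higher at an unadjusted p under 0.05. Of the monocyte markers, 5 of 10 had an unadjusted p under 0.05, all lower. Among them were Ly6c2 (818, 748 and 465 normalized counts in control mimic hearts against 149, 268 and 176), Plac8 and the chemokine receptor gene Ccr2. Beside Ccr2, the most abundant markers were Vcan, with a log2 fold change of -0.19, and F13a1. F13a1, at 0.16, was the only marker of the list above 0. The median log2 fold change of the list was -0.47, and its summed normalized counts were 12820 to 14475 in control mimic hearts. In miR-19a/19b mimic replicates 1, 2 and 3 they were 9600, 11177 and 13661, so only replicate 3 was within the control range. Of the macrophage markers, none was lower at that threshold and 1 was higher, the haemoglobin scavenger receptor gene Cd163. The median of the list was -0.10, and its summed normalized counts were 59361 to 70491 in control mimic hearts. In miR-19a/19b mimic replicates 1, 2 and 3 the sums were 51370, 56349 and 71449, so only replicate 3 was not below every control. Of the T cell markers, 2 of 14 were lower at an unadjusted p under 0.05, Lck and Lat, and without Thy1, the most abundant, their summed normalized count was 476 to 729 in control mimic and 477 to 551 in miR-19a/19b mimic hearts. The B cell list had 1 of 14, Cd72, and without it the sums were 854 to 932 in control mimic hearts. In miR-19a/19b mimic replicates 1, 2 and 3 these sums were 828.5, 725.8 and 891.2, and only replicate 3 was within the control range. No marker of these 4 lists was at 0 in all hearts. Whether cell numbers of these types account for the Ms4a values was not tested.

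Genes induced by interferon, a list of 25 that encode antiviral proteins and their regulators, were lower beside Ms4a4c. All 25 had a log2 fold change below 0, as had 49.2% of all genes tested, and their median was -0.65. At an unadjusted p under 0.05 in limma, 23 were lower, beside 2.63% of all genes tested. None passed an adjusted p under 0.05. The list was written with earlier results of these data known. Relative to the mean of this list, a comparison chosen after the values were seen, Ms4a4c was lower in miR-19a/19b mimic hearts by -0.34, with groups apart (exact permutation p = 0.1). Its own log2 fold change of -1.03 lay within the range of the list. Ifi44 (-1.18) and Ifit1 (-1.05) were lower than Ms4a4c, and the other genes of the list were less low. The other 7 members were higher relative to this list in miR-19a/19b mimic hearts, by 0.16 for Ms4a4b to 0.57 for Ms4a4a, and the groups were apart only for Ms4a6d (0.55).

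**Figure D4:**
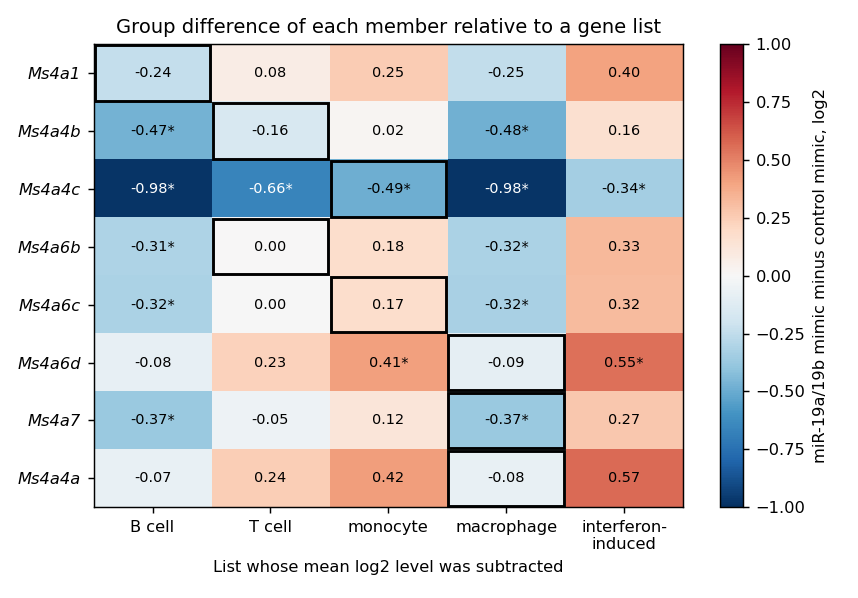
Difference between miR-19a/19b mimic and control mimic hearts in the log2 level of each Ms4a member after the mean log2 level of a gene list was subtracted in each heart, with the list fixed for that member framed and an asterisk where the groups did not overlap. Ms4a4c is the only member below 0 against all 5 lists, from -0.98 against the macrophage list to -0.34 against the interferon-induced list.

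Over the 6 hearts, the closest likeness among the members was that of Ms4a6b with Ms4a6c and of Ms4a4b with Ms4a4c. The likeness was measured as Pearson's r of log2(normalized count + 1), with Spearman's rho, as a description over 6 hearts that share library depth and the group difference. Ms4a4c was most like Ms4a4b (r = 0.945, rho = 0.886), and Ms4a6b most like Ms4a6c (r = 0.946, rho = 0.943). Ms4a4a was most like Ms4a6d (r = 0.832, rho = 0.657), and its r was 0.232 with Ms4a4b and 0.307 with Ms4a4c. Ms4a1 was the member least like most of the others, with r between 0.09 and 0.56. Of the list genes, those most like Ms4a4c were Ifit2 (r = 0.987), Rsad2 (r = 0.987) and Zbp1 (r = 0.986), all interferon-induced. For Ms4a4b they were Plac8, Cd72 and Ifit2 (r from 0.947 to 0.958). The macrophage marker Adgre1, which encodes F4/80, led for both Ms4a6b (r = 0.980) and Ms4a6c (r = 0.984), followed by Gpr141. For Ms4a7 the leading gene was Mx1 (r = 0.949), for Ms4a4a Camp (r = 0.921) and for Ms4a1 Pdgfra (r = 0.955). The list genes most like Ms4a6d included Csf3r (r = 0.974) and C1qa (r = 0.962).

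**Figure D5:**
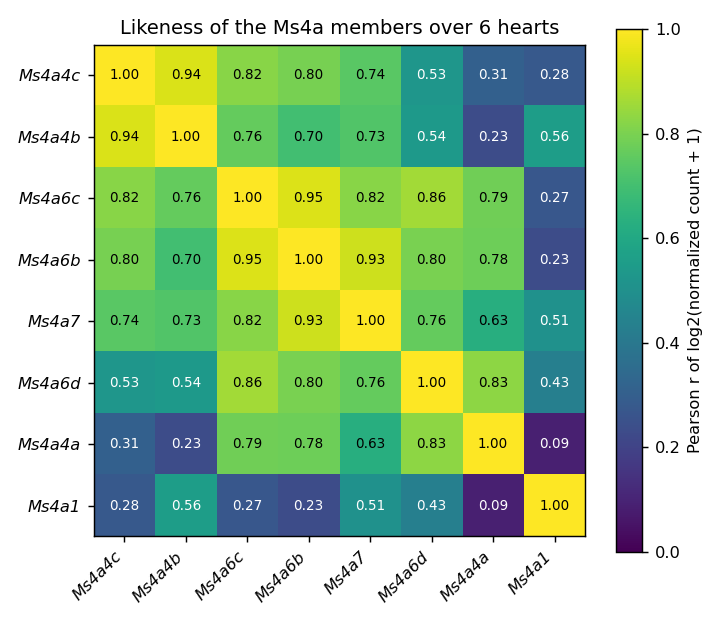
Pearson's r of log2(normalized count + 1) over the 6 hearts between every pair of Ms4a members, from 0 (dark) to 1 (light). The lightest cells off the diagonal are Ms4a6b with Ms4a6c (r = 0.946) and Ms4a4b with Ms4a4c (r = 0.945), and the row of Ms4a1 is the darkest.

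The promoters of Ms4a4b with Ms4a4c and of Ms4a6b with Ms4a6c are printed as a description of sequence. Ms4a6b and Ms4a7 also had a high r, 0.925, and the longest run shared by their promoters was 7 bases. Any part of promoter sequence, or of reads that fit both genes of a pair, in these r values was not tested. Each is RefSeq sequence of GRCm38.p6, from 250 bases before to 50 bases after a transcript start that RefSeq gives, on the plus strand. For Ms4a4c and Ms4a6b that start lies 2891 and 2047 bases downstream of the gene start given above, which belongs to another transcript, so the region before the upstream start was neither printed nor searched. The capitals mark stretches of 12 or more bases that the 2 promoters of a pair share letter for letter. Of 300 bases, 131 lay in such stretches for Ms4a4b and Ms4a4c, of which the longest was 20 bases. For Ms4a6b and Ms4a6c it was 86 bases, with 1 stretch of 48. The other 13 of the 15 pairs that could be formed among the 6 members with a promoter in the table had no stretch of that length, with longest shared runs of 7 to 9 bases. Ms4a1 and Ms4a6d were not in that table.
Ms4a4c, chr19:11407411-11407710: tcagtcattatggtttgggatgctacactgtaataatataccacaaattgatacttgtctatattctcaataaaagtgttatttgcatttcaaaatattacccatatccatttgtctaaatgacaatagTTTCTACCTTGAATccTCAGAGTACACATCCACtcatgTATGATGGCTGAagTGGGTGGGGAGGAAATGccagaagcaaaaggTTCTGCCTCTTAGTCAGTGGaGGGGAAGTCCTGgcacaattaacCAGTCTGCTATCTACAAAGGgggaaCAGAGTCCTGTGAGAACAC
Ms4a4b, chr19:11443308-11443607: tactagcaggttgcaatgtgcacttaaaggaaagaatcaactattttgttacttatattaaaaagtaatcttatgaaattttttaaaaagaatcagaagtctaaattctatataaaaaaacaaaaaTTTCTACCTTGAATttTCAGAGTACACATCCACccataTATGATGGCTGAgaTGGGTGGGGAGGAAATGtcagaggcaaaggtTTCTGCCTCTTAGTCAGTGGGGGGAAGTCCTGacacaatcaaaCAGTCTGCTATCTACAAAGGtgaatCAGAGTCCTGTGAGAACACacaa
Ms4a6b, chr19:11518309-11518608: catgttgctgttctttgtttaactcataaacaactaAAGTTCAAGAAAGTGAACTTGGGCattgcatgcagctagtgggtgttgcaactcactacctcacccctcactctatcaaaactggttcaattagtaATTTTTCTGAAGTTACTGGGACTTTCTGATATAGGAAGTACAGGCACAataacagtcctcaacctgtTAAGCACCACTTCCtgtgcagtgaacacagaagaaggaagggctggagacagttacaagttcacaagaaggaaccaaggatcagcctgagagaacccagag
Ms4a6c, chr19:11469118-11469417: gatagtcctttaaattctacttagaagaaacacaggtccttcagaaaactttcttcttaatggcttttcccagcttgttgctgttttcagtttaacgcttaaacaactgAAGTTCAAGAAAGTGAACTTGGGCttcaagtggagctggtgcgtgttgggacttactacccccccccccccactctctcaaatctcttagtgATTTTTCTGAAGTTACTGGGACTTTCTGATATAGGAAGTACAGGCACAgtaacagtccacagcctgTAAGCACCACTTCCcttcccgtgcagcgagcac

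The promoters of the members were searched on both strands for 3 motifs. The interferon-stimulated response element was spelled as GAAA, any 2 bases and GAAA again, the STAT element TTCNNNGAA, and the site of the myeloid factor PU.1 GAGGAAGT. None of the 7 RefSeq windows of the 6 members held any of them, where 3.44%, 8.3% and 3.2% of all 32851 promoters of the same length did. That says only that these letters are not in these windows.

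The 3′ UTRs of the members were searched for 3 forms of match to the miR-19 seed. The form TTTGCAC pairs with bases 2 to 8 of the miRNA. A shifted form, which drops the first T and ends in an extra A, is spelled TTGCACA in this search. The longest form, TTTGCACA, holds both. Ms4a7 had 1 match and the other 6 members with an annotated 3′ UTR had none, Ms4a4c included, while Ms4a4a has no annotated 3′ UTR in GENCODE M21. Of all 15820 tested genes with a 3′ UTR, 19.3% had at least 1 of the 3. The match in Ms4a7 lies in its 3′ UTR at chr19:11321159-11321165 on the minus strand, shown in capitals with the bases around it.
Ms4a7: ctgcattgcTTGCACAatcctttgc
The longest 3′ UTR was 478 bases for Ms4a7 and 910 bases for Ms4a4c, beside a median of 1103 bases over those genes. A match is a description of the sequence and not a site of action.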

How the data were processed

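Polyadenylated RNA of 6 hearts, 3 per group as the titles give them, was sequenced in 150 base reads. The authors aligned reads with STAR 2.5.1b and counted them per gene with HTSeq 0.6.0. The signal deposited by the authors is the number of reads on a gene after division by the size factor of its library (0.905 to 1.16), called the normalized count here. All values (100%, within 0.01 of a whole read) were whole multiples of 1 read, so reads could be recovered. Columns of log2 fold change and p-value, also deposited, hold the authors' own comparison and were not used. The submitters' processing notes name mm9 and DESeq2 1.10.1, but 82.7% of 25884 gene identifiers have the start and end of GENCODE M21, so coordinates are taken as GRCm38. Replicates differed by far more than counting noise (chi-square per degree of freedom from 9.49 to 123). Nothing states whether libraries were prepared together.

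Groups were compared with limma 3.58.1 (R 4.3.3, trended prior) on log2(normalized count + 1), which understates the change of scarce genes, over 21126 genes with a mean of at least 1, with Benjamini-Hochberg adjustment. On recovered reads, DESeq2 1.42.0 called 29 genes and edgeR 4.0.16 called 0 at an adjusted p under 0.05. The tests were checked on simulated data. Alternatives were these tools, filters, the replicate number as a block, a pseudocount of 0.1 and each heart left out. A covariate of cardiomyocyte markers and the use of other lists were chosen after seeing the data. Genes named were the members, other Ms4a genes, partners, and from each list the 3 most abundant, those with an unadjusted p under 0.05 and those most like a member, of which the text gives a part, and 1 item is not reported here. BE692007 was chosen after its values were seen. The members and lists were chosen with earlier results of these data known.

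The marker lists not described above had medians of log2 fold change of -0.46 (neutrophil), 0.47 (mast cell), 0.12 (cardiomyocyte), -0.05 (fibroblast) and 0.00 (endothelial).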

Additional observations from a re-analysis of the deposited data

How the results depend on the processing

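The limits are the 3 hearts per group, the heart that stood apart and, for Ms4a1, 6 to 22 reads. At an adjusted p under 0.05, 0 members passed in limma, and 1, Ms4a4c, passed with DESeq2 and with the cardiomyocyte covariate, which was chosen after seeing the data (log2 fold change -1.01, adjusted p = 0.0143 from limma). Over the alternatives the adjusted p of Ms4a4c ran from 0.00208 with DESeq2 to above 0.999 in limma, whichever control mimic heart was left out. With 1 heart left out at a time, 0 to 3 members passed, with 3 only without miR-19a/19b mimic replicate 3 (Ms4a4c, Ms4a6c and Ms4a7). The count at an unadjusted p under 0.05, 5 with all hearts, ran from 1 to 7. It was 1 without control mimic replicate 2 or miR-19a/19b mimic replicate 1, 2 without miR-19a/19b mimic replicate 2 and 3 without control mimic replicate 3. Between 2 and 6 members had groups apart, 4 when control mimic replicate 1 was dropped and 6 when miR-19a/19b mimic replicate 3 was. Their median log2 fold change was lowest without the latter (-0.56) and highest, -0.25, when miR-19a/19b mimic replicate 1 was dropped, and it stayed below 0 under each alternative run. The share of all genes moved too: groups apart as lower rose from 5.3% with all hearts to 14.4% without miR-19a/19b mimic replicate 3. For the other hearts left out, that share was not computed, so those counts are not results about the members. The causes of these shifts were not tested.

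Same-numbered hearts did not deviate together (r = -0.02, -0.17 and -0.29 for numbers 1, 2 and 3). No pairing by number was seen, although 3 hearts per group are too few to decide this. With the replicate number as a block, 3 members had an unadjusted p under 0.05 and 0 an adjusted p under 0.05, with a median log2 fold change of -0.37. The share of all genes in that fit was not computed.

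Directions changed for values that were small or poorly determined. With 1 heart left out, the log2 fold change of Ms4a1 ran from -0.72 to 0.0832 (no control mimic replicate 1; 0.0208 with no miR-19a/19b mimic replicate 2) and that of Ms4a6d from -0.34 to 0.0265 (no miR-19a/19b mimic replicate 1). Against the lists, Ms4a1 ran from -0.67 to 0.20, Ms4a4a from -0.21 to 0.0251, Ms4a6b from -0.27 to 0.24 and Ms4a6d from -0.20 to 0.0002. With the macrophage list in place of their own, Ms4a6b differed by -0.32 and Ms4a6c by -0.32. With the interferon-induced list, Ms4a1 differed by 0.40, Ms4a4a by 0.57, Ms4a4b by 0.16, Ms4a6d by 0.55 and Ms4a7 by 0.27. Both lists were put in after seeing the data.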
